A study of Bos taurus with 48 samples.

Results

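Genes of fatty acid and triglyceride synthesis were followed through liver, mammary parenchyma and mammary fat pad of dairy calves on 3 feeding levels. They were chosen as 5 Ensembl identifiers among the 27607 gene rows of the deposited counts: ENSBTAG00000015980 (FASN, fatty acid synthase), ENSBTAG00000017567 (ACACA, acetyl-CoA carboxylase alpha), ENSBTAG00000026356 (DGAT1, diacylglycerol acyltransferase), ENSBTAG00000045728 (SCD, stearoyl-CoA desaturase) and ENSBTAG00000007823, which was listed as the regulator SREBF1. The counts carry identifiers only, so the names are those given with the choice of the 5 genes. SCD was not analysed here, which left 4 genes with counts. FASN was counted at 646 to 235334 reads per library, ACACA at 415 to 48606 and DGAT1 at 87 to 1677. ENSBTAG00000007823 had a median of 7 reads per library, at most 36, and 0 reads in 3 libraries. Such counts go against the name of a general regulator of lipid synthesis, and the gene is therefore given by its identifier, with no role.

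As background, acetyl-CoA carboxylase makes malonyl-CoA, the committed step of fatty acid synthesis, and fatty acid synthase joins malonyl-CoA units into palmitate. Stearoyl-CoA desaturase then introduces a double bond, and DGAT1 attaches the last fatty acid to diacylglycerol to form a triglyceride. In ruminants, fatty acids are made mainly in adipose tissue and, in lactation, in the mammary epithelium, and little in the liver.

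Total RNA depleted of ribosomal RNA was sequenced from 47 libraries. Feeding followed a published dairy cattle standard in the control group, milk replacer was cut back in the restricted group, and the unlimited group could drink it freely at 3 meals of 30 minutes each day. There were 6 libraries per tissue for restricted and for unlimited feeding. Controls numbered 4 for liver, 4 for fat pad and 3 for parenchyma, the epithelial part of the gland. The labels used here give neither age nor breed, and they do not state that the libraries of a group are separate calves, so the p-values reflect only the spread among these libraries. Levels are given in CPM, the reads of a gene per 1000000 reads counted in genes. CPM takes no account of gene length, so levels are compared between libraries and never between genes.

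Totals counted in genes were 5.59 to 24.2 M (mega) reads per library, with a median of 13.8 M. Only 2 libraries list unaligned reads, number 1 of liver control and number 1 of fat pad control. They also have the lowest totals, 5.59 and 5.87 M. Fat pad control 1 was the highest fat pad library in FASN, ACACA and DGAT1. Whether these points are linked was not tested. Tissue identity was examined as a position between the mean parenchyma profile (0) and the mean fat pad profile (1) of restricted and unlimited libraries, over genes other than the 5 studied. Restricted and unlimited libraries of fat pad lay between 0.808 and 1.09, and all parenchyma libraries between -0.021 and 0.074. Libraries labelled as fat pad control stood apart from the other fat pad libraries: number 1 lay at -0.031, number 2 at 0.027, number 21 at 0.122 and number 18 at 0.535. Numbers 1 and 2 carry PAR in their titles, the abbreviation the series uses for parenchyma, whereas the titles of the parenchyma libraries analysed carry TP or PTP. A parenchyma control numbered 2 that was not analysed here carries PAD. Each diet comparison with fat pad controls rests on these 4 libraries and is given with and without numbers 1 and 2. Defining markers of the tissues could not be examined by name.

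**Figure D1:**
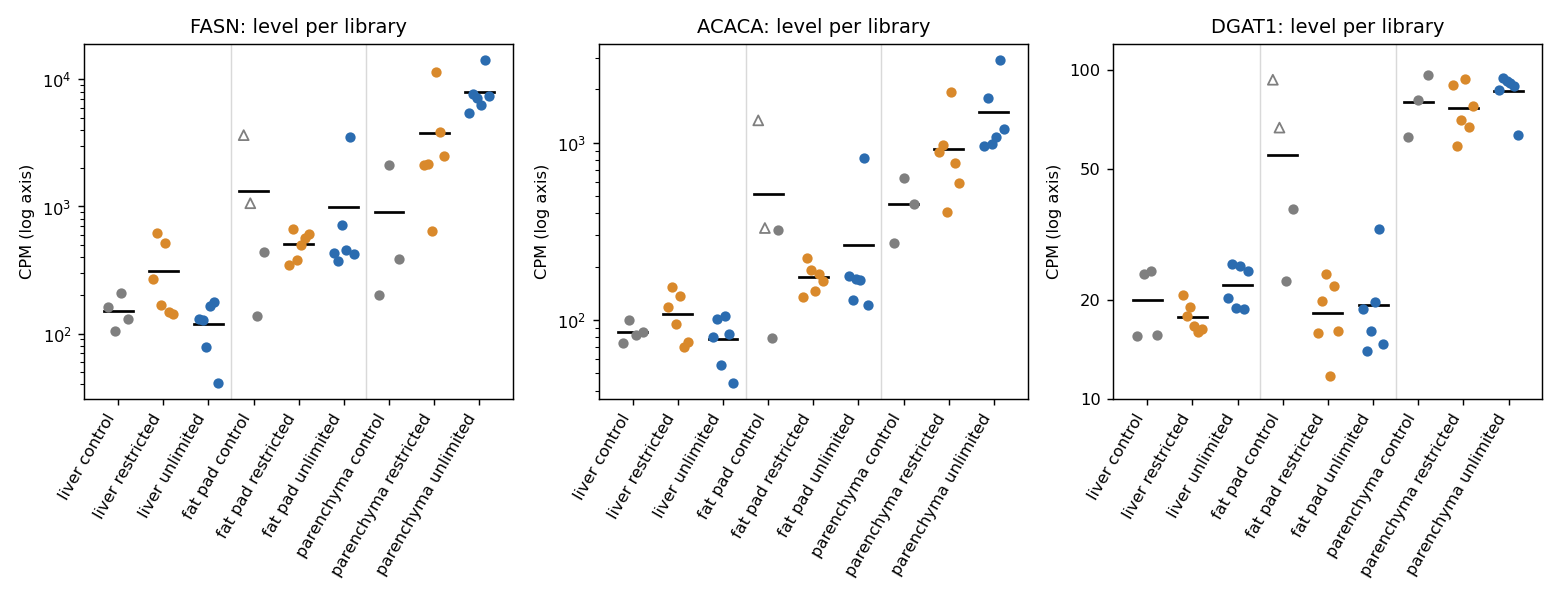
Level of FASN, ACACA and DGAT1 in CPM (log axis) in each of the 47 libraries, by tissue and diet. Points are libraries, black bars are group means, and open triangles are the fat pad controls with PAR in their titles. Parenchyma of unlimited calves has the highest group mean of each gene, 8006 CPM for FASN, 1489 CPM for ACACA and 86.4 CPM for DGAT1.

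All 3 enzymes had their highest group mean in parenchyma of unlimited calves, and FASN spanned the widest range of levels. Control parenchyma lay below fat pad control in mean FASN and ACACA. In parenchyma, FASN ran from 201 CPM in a control library to 14167 CPM in an unlimited library, a 70.3-fold range. ACACA spanned 10.8-fold in the same 15 libraries, and DGAT1 only 1.65-fold. In the 16 liver libraries, the ranges were 15.0-fold for FASN, 3.46-fold for ACACA and 1.66-fold for DGAT1. In fat pad, with the doubtful controls, they were 26.7-fold for FASN, 16.9-fold for ACACA and 7.95-fold for DGAT1. DGAT1 thus had the narrowest range of the 3 in each tissue.

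The mean FASN level fell into the order parenchyma unlimited (8006 ± 3128 CPM, SD, n = 6), parenchyma restricted (3783 ± 3871, n = 6), fat pad control (1318 ± 1595, n = 4), fat pad unlimited (981 ± 1234, n = 6), parenchyma control (898 ± 1049, n = 3), fat pad restricted (508 ± 127, n = 6), and then the liver groups. Liver means were 309 ± 205 CPM in restricted (n = 6), 151 ± 44.8 in control (n = 4) and 120 ± 52.0 in unlimited calves (n = 6). Each group overlapped with the next in this order, so no pair of neighbours was set apart by its libraries. The same held for ACACA, whose means ran from 1489 ± 769 CPM in parenchyma of unlimited calves to 78.4 ± 24.2 CPM in liver of unlimited calves (n = 6 each). For DGAT1, group means in CPM were 76.5 to 86.4 in parenchyma and 17.8 to 22.3 in liver and in restricted and unlimited fat pad, with fat pad control at 55.2 ± 31.3 (n = 4). On TMM-scaled library sizes, the scaling the tests use, DGAT1 means were 25.0 to 27.3 CPM in liver. Those of restricted and unlimited fat pad were 13.8 and 15.4 CPM. The order of the other enzymes changed as well. Restricted liver then lay above restricted fat pad in FASN (444 and 388 CPM) and in ACACA (153 and 132 CPM). Parenchyma control lay above unlimited fat pad in FASN (815 and 788 CPM).

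Tissues were compared over the restricted and unlimited libraries, 12 per tissue, with edgeR's quasi-likelihood test and Benjamini-Hochberg adjustment over all genes tested. Parenchyma exceeded fat pad 9.73-fold in FASN, with a log2 difference of 3.28 ± 0.45 (SE, edgeR adjusted p = 7.89e-07). For ACACA the excess was 6.81-fold (2.77 ± 0.34, edgeR adjusted p = 1.34e-07), and for DGAT1 it was 5.36-fold (2.42 ± 0.14, edgeR adjusted p = 1.39e-13). All 3 enzymes passed, where 66.2% of all genes tested did, and their median log2 difference was 2.77 against -0.02 over all genes. With the control libraries added, doubtful ones included, the differences were 1.99 for FASN, 1.76 for ACACA and 1.78 for DGAT1 (edgeR adjusted p = 0.000616, 8.46e-05 and 1.58e-09). Among restricted and unlimited libraries, DGAT1 did not overlap between the tissues. The lowest parenchyma library, a restricted calf at 58.8 CPM, lay above the highest fat pad library at 32.9 CPM. The share of all genes without overlap was not counted, here or in the comparisons below. FASN overlapped, since 3 fat pad libraries, at 665, 720 and 3488 CPM, lay above the lowest parenchyma library, restricted number 8 at 641 CPM. ACACA overlapped through fat pad of unlimited number 11 at 823 CPM.

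Liver lay below parenchyma in all 3 enzymes. The log2 difference of liver from parenchyma was -4.40 ± 0.42 for FASN (SE, edgeR adjusted p = 6.84e-10), -3.25 ± 0.26 for ACACA (edgeR adjusted p = 1.78e-11) and -1.60 ± 0.09 for DGAT1 (edgeR adjusted p = 1.25e-14). Of all genes tested, 75.5% passed in this comparison. In ACACA and DGAT1, no liver library reached the lowest parenchyma library of restricted or unlimited calves. In FASN, those livers ended at 616 CPM and those parenchyma libraries began at 641 CPM, a gap smaller than the differences in scaling between the tissues.

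Against fat pad, liver was lower in FASN, with a log2 difference of -1.10 ± 0.37 (SE, edgeR adjusted p = 0.00984), in a comparison in which 77.9% of all genes passed. ACACA did not pass there (-0.47 ± 0.26, edgeR adjusted p = 0.110), and DGAT1 was higher in liver (0.83 ± 0.13, edgeR adjusted p = 4.20e-06). These last results depended on the scaling between tissues. Without scaling factors the median of all genes moved to -0.81, ACACA passed at -1.22 (edgeR adjusted p = 0.000149), and DGAT1 was at 0.08 (edgeR adjusted p = 0.564). With the control libraries added, all 4 of fat pad included, ACACA passed at -0.98 (edgeR adjusted p = 0.00366) and DGAT1 was at 0.27 (edgeR adjusted p = 0.113). In these bulk tissues, a lower share of cells of a type and less RNA per cell cannot be told apart.

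ENSBTAG00000007823 stood at group means of 0.349 to 1.03 CPM and was highest in liver of unlimited calves (1.03 ± 0.861, SD, n = 6). It was higher in liver than in parenchyma by a log2 difference of 1.54 ± 0.51 (SE, edgeR adjusted p = 0.00869) and than in fat pad by 1.65 ± 0.39 (edgeR adjusted p = 0.000532). Among all genes tested, 75.5% and 77.9% passed in these comparisons. The difference from parenchyma was 1.15 without scaling factors (edgeR adjusted p = 0.0486). In parenchyma against fat pad the difference was 0.10 ± 0.49 (edgeR adjusted p = 0.865). Its counts passed the filter on low values in 4 of the 9 diet comparisons, the 3 of liver and that of unlimited against control parenchyma, and it passed the test in none of them (log2 differences of 0.05 to 0.57, edgeR adjusted p = 0.856 to 0.977). It is left out of the counts of enzymes below.

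**Figure D2:**
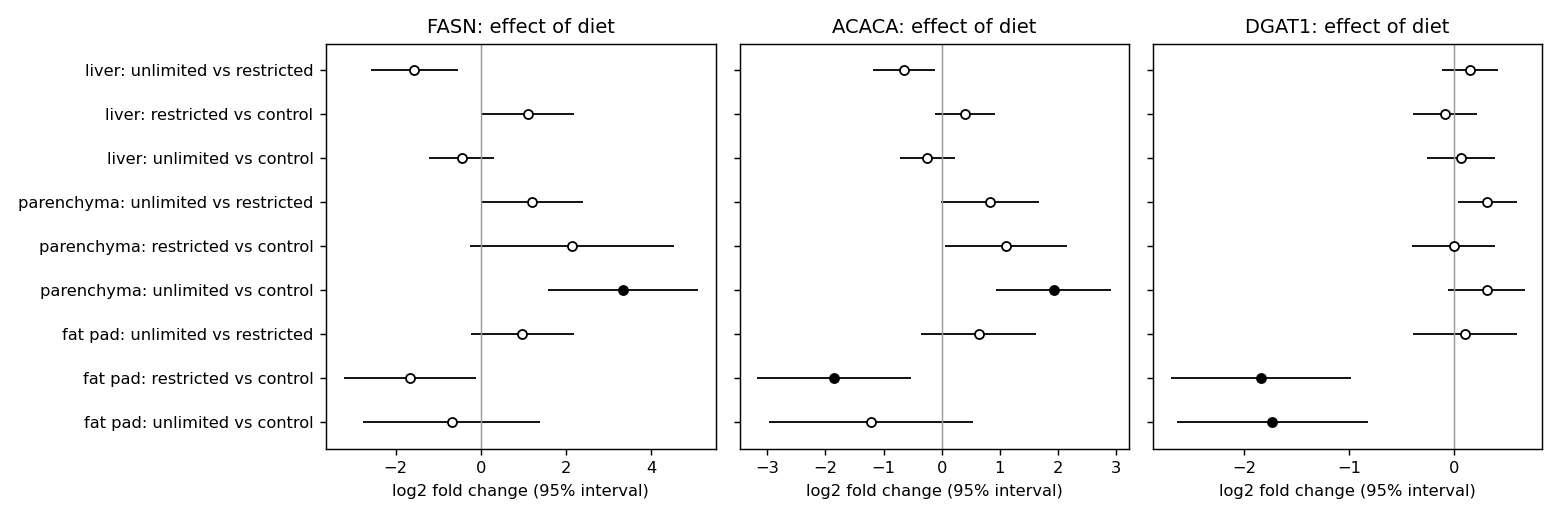
Log2 fold change of FASN, ACACA and DGAT1 in each of the 9 diet comparisons, with 95% intervals from edgeR (3 to 6 libraries a group). Filled points passed an adjusted p of 0.05. In parenchyma, FASN and ACACA passed in unlimited against control; in fat pad, the filled points are comparisons with the doubtful controls.

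In parenchyma, FASN and ACACA were higher in unlimited than in control calves, 10.1-fold and 3.81-fold, while DGAT1 did not pass. FASN in the 3 control libraries was at 201, 387 and 2104 CPM, and in the 6 unlimited libraries it had a lowest value of 5425, a median of 7271 and a highest of 14167 CPM. The groups did not overlap, though how many of all genes do so was not counted. The control numbered 19 was the highest of the controls by a wide margin. The log2 fold change of FASN was 3.34 ± 0.78 (SE, 95% interval 1.58 to 5.09, edgeR adjusted p = 0.0245). ACACA was at 270, 450 and 632 CPM in the controls and at 958, 1137 and 2926 CPM (lowest, median, highest) in the unlimited libraries, again with no overlap. Its log2 fold change was 1.93 ± 0.45 (95% interval 0.94 to 2.92, edgeR adjusted p = 0.0199).

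DGAT1 was at 62.4, 81.2 and 96.9 CPM in the controls and at 63.6, 90.4 and 94.6 CPM (lowest, median, highest) in unlimited calves, and the groups overlapped. The log2 difference of DGAT1 was 0.31 ± 0.17 (95% interval -0.05 to 0.68, edgeR adjusted p = 0.250). In this comparison 12.4% of all genes passed, and 2 of the 3 enzymes did, both higher. The median log2 fold change of the 3 enzymes was 1.93, against -0.01 over all genes tested.

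These calls rested on 3 controls. Without control 21, FASN was at 2.97 (edgeR adjusted p = 0.086) and ACACA at 1.92 (edgeR adjusted p = 0.076), and without control 18 ACACA was at 1.65 (edgeR adjusted p = 0.081). The FASN value was 4.99 without control 19. With the PAR-titled fat pad controls counted as parenchyma controls, FASN passed at 2.56 (edgeR adjusted p = 0.0326) and ACACA did not at 1.44 (edgeR adjusted p = 0.0692). Without the filter on low counts neither passed, at 3.33 (edgeR adjusted p = 0.0702) and 1.93 (edgeR adjusted p = 0.0631).

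Unlimited and restricted parenchyma differed in the same direction, but none of the 3 enzymes passed. FASN in restricted calves had a lowest value of 641, a median of 2332 and a highest of 11400 CPM. A single restricted library, number 10, lay inside the range of the unlimited group; the next highest restricted library, at 3869 CPM, lay below all 6 unlimited libraries. The log2 fold change of FASN was 1.20 ± 0.55 (SE, 95% interval -0.00 to 2.40, edgeR adjusted p = 0.170). ACACA was at 405, 828 and 1924 CPM (lowest, median, highest) in restricted calves, with a log2 fold change of 0.83 ± 0.39 (95% interval -0.01 to 1.66, edgeR adjusted p = 0.173). Its highest restricted library was number 10 as well, and 1 other restricted library, at 968 CPM, lay just above the lowest unlimited library.

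DGAT1 was at 58.8, 74.2 and 94.2 CPM (lowest, median, highest) in restricted calves and differed by 0.32 ± 0.13 on the log2 scale (95% interval 0.04 to 0.60, edgeR adjusted p = 0.119). Again the highest restricted library was number 10. Across all genes, 12.6% passed in this comparison. The outcome for the 3 enzymes changed without library 10, which stood apart in these same FASN and ACACA values. FASN was then at 1.97 (edgeR adjusted p = 0.00549), ACACA at 1.20 (edgeR adjusted p = 0.0274) and DGAT1 at 0.40 (edgeR adjusted p = 0.0427), and all 3 passed. Each of the 12 libraries was left out in turn, and the share of all genes passing without library 10 is not given here. The 3 passes are therefore not set against the other genes. Nothing in the labels sets library 10 apart.

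Restricted against control parenchyma gave wide intervals. The log2 difference was 2.14 ± 1.06 for FASN (SE, 95% interval -0.26 to 4.54, edgeR adjusted p = 0.399), 1.10 ± 0.47 for ACACA (edgeR adjusted p = 0.315) and -0.00 ± 0.18 for DGAT1 (edgeR adjusted p = 0.997). Of all genes, 0.329% passed. The groups overlapped in FASN through restricted number 8, at 641 CPM, and in ACACA through restricted numbers 8 and 16, at 405 and 590 CPM. This comparison shares its controls with that of unlimited calves and its restricted libraries with the one before. The FASN difference was 3.78 without control 19 and 1.38 without restricted 10.

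**Figure D3:**
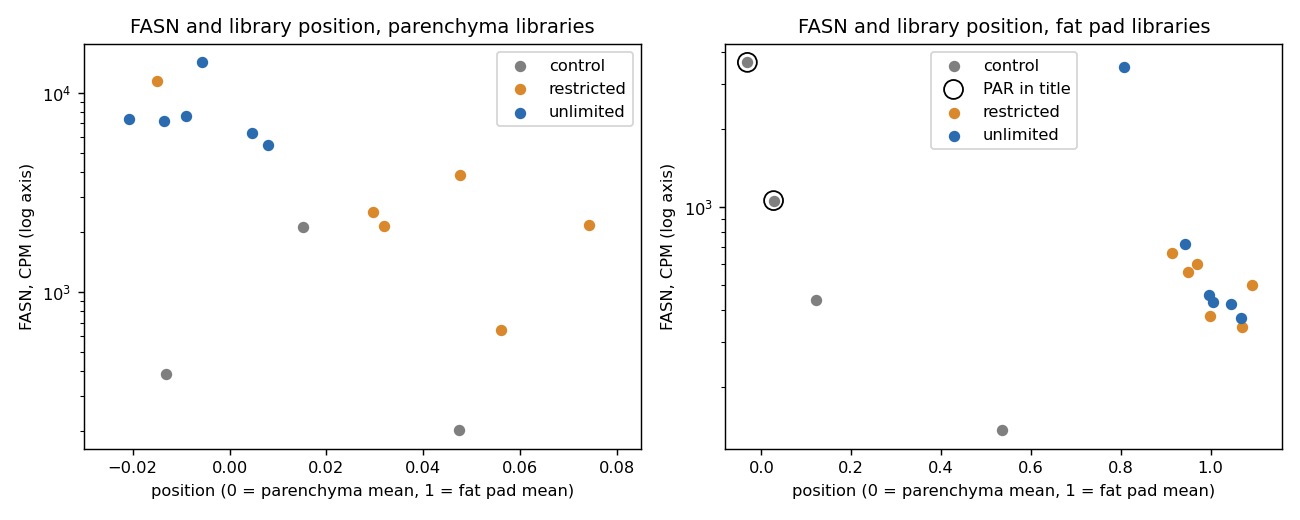
FASN level in CPM (log axis) against the position of each library between the mean parenchyma (0) and fat pad (1) profiles, for 15 parenchyma and 16 fat pad libraries. In parenchyma, unlimited libraries and restricted library 10 share the lowest positions, together with 1 control at 387 CPM; in fat pad, unlimited library 11 lies at 0.808 with 3488 CPM, and circled points are controls with PAR in their titles.

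Position differed among parenchyma libraries, and the diet comparisons were repeated with it in the fit. Restricted libraries lay at a mean position of 0.037 ± 0.031 (SD, n = 6), further towards fat pad than unlimited libraries at -0.006 ± 0.011 (n = 6). Library 10 had the lowest position of the restricted group, -0.015. The fit with position as a term was a choice made after the data were seen. In it, the log2 difference of unlimited from restricted parenchyma was 0.30 for FASN, 0.29 for ACACA and 0.09 for DGAT1. None of them passed (edgeR adjusted p = 0.854, 0.838 and 0.868). Over all genes the calls in this comparison went from 1780 to 3. Position was computed from restricted and unlimited libraries and differed between these diets, so position and diet cannot be told apart here. The differences of unlimited from control parenchyma were 2.97 for FASN (edgeR adjusted p = 0.127) and 1.68 for ACACA (edgeR adjusted p = 0.114) in that fit, with 1070 genes called in place of 1881. Those of restricted from control parenchyma were 2.45 for FASN (edgeR adjusted p = 0.330) and 1.36 for ACACA (edgeR adjusted p = 0.191), against 2.14 and 1.10 without position. Control positions were 0.016 ± 0.030 (n = 3), a mean between those of the other 2 diets. The mean FASN level of the controls was the lowest of the 3. The cause of these differences was not tested.

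In liver, no enzyme passed in any diet comparison, and the estimates for FASN were larger than those for DGAT1. FASN was at 142, 219 and 616 CPM (lowest, median, highest) in restricted calves and at 41.0, 129 and 177 CPM in unlimited calves. The ranges overlapped, since 3 of the 6 restricted livers lay within the unlimited range, and the other 3, at 269, 512 and 616 CPM, lay above it. The log2 difference of unlimited from restricted liver was -1.56 ± 0.47 for FASN (SE, 95% interval -2.57 to -0.54, edgeR adjusted p = 0.185). ACACA, at 70.9 to 153 CPM in restricted and 44.2 to 106 CPM in unlimited liver, differed by -0.65 ± 0.25 (95% interval -1.18 to -0.12, edgeR adjusted p = 0.265). The 3 restricted livers highest in FASN were also the highest in ACACA.

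DGAT1 in liver differed by 0.15 ± 0.13 (95% interval -0.12 to 0.42, edgeR adjusted p = 0.617) between unlimited and restricted calves. Over all genes, 0.0143% passed in this comparison, 2 of 14030 with edgeR, where 1984 had an unadjusted p under 0.05 and DESeq2 called 357. FASN in the 4 control livers was at 105, 129, 163 and 208 CPM, which overlapped both other groups. Against control, the log2 difference of FASN was 1.11 ± 0.49 in restricted calves (95% interval 0.03 to 2.19, edgeR adjusted p = 0.360) and -0.45 ± 0.35 in unlimited calves (95% interval -1.20 to 0.31, edgeR adjusted p = 0.734). Those comparisons share the 4 controls, and 0.85% and 0.482% of all genes passed in them. ACACA was at 0.40 ± 0.24 and -0.25 ± 0.22 (edgeR adjusted p = 0.507 and 0.781), and DGAT1 at -0.08 ± 0.14 and 0.07 ± 0.15 (edgeR adjusted p = 0.861 and 0.929).

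In fat pad, no enzyme passed between unlimited and restricted calves, and 1 unlimited library stood apart in all 3. FASN was at 343, 530 and 665 CPM (lowest, median, highest) in restricted calves and at 372, 443 and 3488 CPM in unlimited calves. Unlimited library 11 was the highest in FASN, in ACACA (823 CPM, the other 5 at 121 to 176) and in DGAT1 (32.9 CPM, the others at 14.0 to 19.6). The restricted ranges were 134 to 225 CPM for ACACA and 11.7 to 24.0 CPM for DGAT1, and the other 5 unlimited libraries overlapped them. The log2 differences were 0.98 ± 0.56 for FASN (SE, edgeR adjusted p = 0.634), 0.63 ± 0.46 for ACACA (edgeR adjusted p = 0.702) and 0.11 ± 0.23 for DGAT1 (edgeR adjusted p = 0.922).

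Without library 11 these differences were -0.07, -0.17 and -0.12 (edgeR adjusted p = 0.953, 0.790 and 0.896). Library 11 was also the fat pad library of restricted or unlimited calves nearest to parenchyma, at a position of 0.808. With position in the fit, the FASN difference was 0.19 and that of ACACA 0.08. Across the genome, 0.0% of genes passed, 0 of 15203 with edgeR, where 1316 had an unadjusted p under 0.05 and DESeq2 called 2.

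Comparisons with fat pad controls gave lower ACACA and DGAT1 in restricted calves and lower DGAT1 in unlimited calves. None of these passed once both libraries with PAR in their titles were left out. DGAT1 in the 4 controls was at 93.4 and 66.8 CPM in the PAR-titled numbers 1 and 2, and at 22.9 and 37.9 CPM in numbers 18 and 21. The first pair lay in the range of parenchyma, 58.8 to 96.9 CPM. Number 18 lay within, and number 21 above, the 11.7 to 32.9 CPM of the other fat pad libraries. FASN was at 3639 and 1060 CPM in the first pair and at 136 and 437 CPM in the second, and ACACA at 1338 and 330 against 79.4 and 321 CPM. With all 4 controls, restricted fat pad was lower in ACACA by a log2 difference of -1.85 ± 0.60 (SE, edgeR adjusted p = 0.0443) and in DGAT1 by -1.84 ± 0.39 (edgeR adjusted p = 0.00662), where 25.5% of all genes passed. FASN was at -1.66 ± 0.70 (edgeR adjusted p = 0.107).

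Unlimited fat pad was lower in DGAT1 by -1.73 ± 0.41 (SE, edgeR adjusted p = 0.0117), where 27.5% of all genes passed, with FASN at -0.68 ± 0.94 (edgeR adjusted p = 0.614) and ACACA at -1.21 ± 0.79 (edgeR adjusted p = 0.270). Without the PAR-titled controls, only controls 18 and 21 remained, at positions of 0.535 and 0.122, outside the range of the other fat pad libraries. None of the 3 enzymes then passed in either comparison, while 2956 of 16694 genes passed in restricted and 3594 of 16256 in unlimited calves. The restricted differences were then 0.65 for FASN, -0.38 for ACACA and -0.88 for DGAT1 (edgeR adjusted p = 0.388, 0.612 and 0.0954). The unlimited differences were 1.64, 0.25 and -0.76 (edgeR adjusted p = 0.322, 0.861 and 0.171), so that FASN turned in both comparisons and ACACA in the second. Among single libraries, the ACACA call in restricted calves was lost without any 1 of 8 of the 10 libraries. Without control 1 its value was -0.70 (edgeR adjusted p = 0.251). Both DGAT1 calls were kept whichever single library was left out (highest edgeR adjusted p = 0.0206 in restricted and 0.035 in unlimited calves). FASN passed at -2.04 without control 18 (edgeR adjusted p = 0.00659), and in unlimited calves FASN was at 0.66 without control 1.

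An interaction term tested whether the difference between unlimited and restricted calves was of another size in 1 tissue than in another. FASN passed between parenchyma and liver: its diet effect was higher in parenchyma by 2.79 ± 0.74 on the log2 scale (SE, 95% interval 1.26 to 4.32, edgeR adjusted p = 0.0232), in a test that 7.41% of all genes passed. ACACA was at 1.49 ± 0.48 (95% interval 0.51 to 2.47, edgeR adjusted p = 0.0553) and DGAT1 at 0.18 ± 0.18 (95% interval -0.19 to 0.54, edgeR adjusted p = 0.578). Neither tissue's own FASN difference passed, 1.20 in parenchyma and -1.56 in liver. The FASN call was lost without the libraries numbered 4, 5, 6 or 15 (edgeR adjusted p = 0.0505 to 0.0814), and ACACA passed without those numbered 10 (1.76, edgeR adjusted p = 0.0154). With the share of reads assigned to genes as a covariate, FASN was at 2.22 (edgeR adjusted p = 0.215).

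Between parenchyma and fat pad, the diet effects differed by 0.22 ± 0.82 for FASN (95% interval -1.47 to 1.92, edgeR adjusted p = 0.938), by 0.19 ± 0.63 for ACACA (edgeR adjusted p = 0.931) and by 0.20 ± 0.27 for DGAT1 (edgeR adjusted p = 0.800), with 0.778% of all genes passing. Those intervals leave room for differences in either direction. Between fat pad and liver the values were 2.55 ± 0.75 for FASN (edgeR adjusted p = 0.186), 1.29 ± 0.53 for ACACA (edgeR adjusted p = 0.315) and -0.03 ± 0.27 for DGAT1 (edgeR adjusted p = 0.988). In that test 0.0% of genes passed, 0 of 16228 with edgeR, where 2122 had an unadjusted p under 0.05 and DESeq2 called 154.

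FASN and ACACA, which catalyse successive steps, varied together in each tissue by Pearson's r, and in parenchyma by Spearman's rho as well. Relations were computed on log2(CPM + 1) for all pairs of the 4 genes in 3 tissues, 18 in all, with permutation tests of 100000 resamples. Libraries of a tissue were permuted across diets, so differences between diets enter these values. In parenchyma Pearson's r was 0.918 (n = 15, permutation p = 1e-05, the smallest these resamples can give, adjusted 0.00018) and Spearman's rho 0.943 (adjusted permutation p = 0.00018). Without the 2 libraries farthest from the median of FASN, r was 0.887. In liver r was 0.873 (n = 16, adjusted permutation p = 0.00054), rho 0.618 (adjusted permutation p = 0.0746), and r was 0.718 without the 2 farthest libraries.

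**Figure D4:**
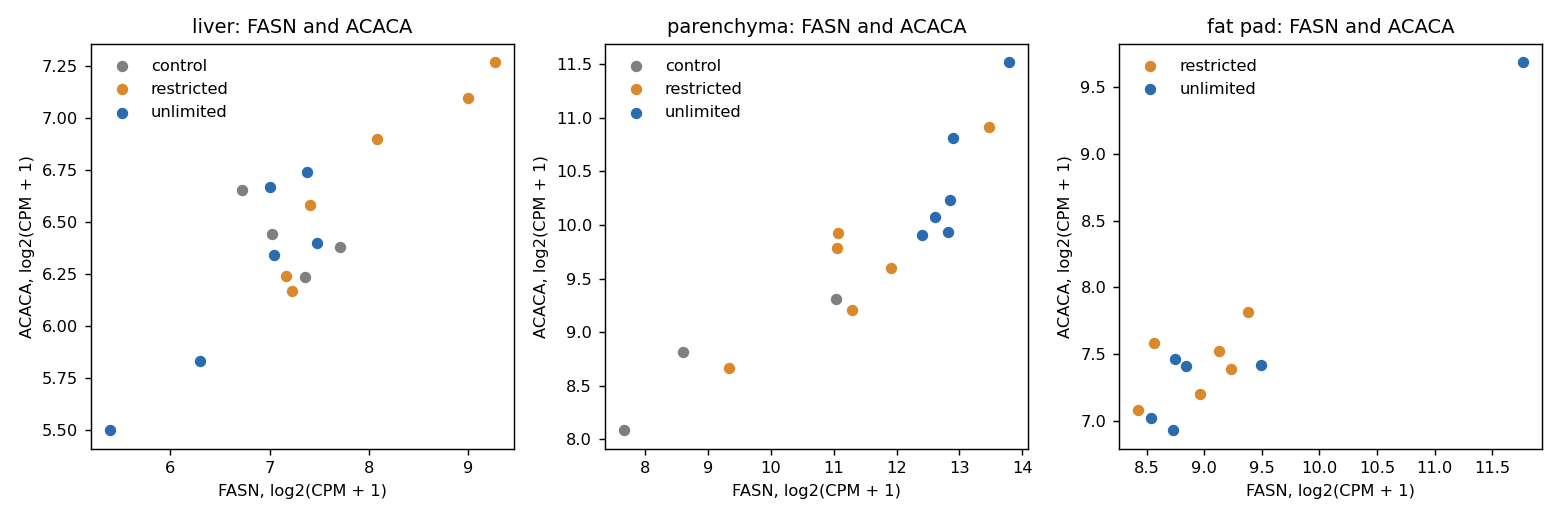
ACACA against FASN, both as log2(CPM + 1), in 16 liver, 15 parenchyma and 12 fat pad libraries (fat pad without controls). Points are libraries coloured by diet. The genes rise together in parenchyma over all 3 diets (r = 0.918), while in fat pad the single library at the upper right is unlimited number 11.

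In fat pad without its controls (n = 12), FASN and ACACA gave an r of 0.940 (adjusted permutation p = 0.0145), but rho was 0.601 (adjusted permutation p = 0.157) and r was 0.602 without the 2 farthest libraries, so that the high r rested on those libraries, 1 of them unlimited number 11. ACACA and DGAT1 gave an r of 0.831 there (adjusted permutation p = 0.0024), a rho of 0.895 (adjusted permutation p = 0.00189) and an r of 0.734 without the 2 farthest libraries. FASN and DGAT1 gave 0.651 (adjusted permutation p = 0.140), and 0.135 without the 2 farthest. In liver and parenchyma, DGAT1 passed with neither FASN (r of -0.323 and 0.364, adjusted permutation p = 0.458 for both) nor ACACA (r of -0.034 and 0.408, adjusted permutation p = 0.901 and 0.393). The spread of DGAT1 in those tissues was small, with an SD of 0.25 on the log2 scale in each, against 0.92 and 1.80 for FASN. On deviations from the diet means, FASN and ACACA gave an r of 0.829 in parenchyma, 0.840 in liver and 0.940 in fat pad (adjusted permutation p = 0.0018, 0.00144 and 0.0027). The part of library position in these relations was not tested.

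Among the 15013 other genes with a mean of at least 1 CPM, likeness to each enzyme was measured as Pearson's r over the 9 group means, as a description. The gene most like FASN was ENSBTAG00000052670 (r = 0.992), that most like ACACA was ENSBTAG00000011666 (r = 0.996), and that most like DGAT1 was ENSBTAG00000020688 (r = 0.995). ACACA had rank 9 for likeness to FASN (r = 0.961), and FASN had rank 84 for likeness to ACACA. DGAT1 was further away, at rank 1391 for FASN (r = 0.744) and rank 597 for ACACA (r = 0.892). The group means share the differences between tissues, which many genes follow.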

How the data were processed

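The deposited values are read counts per gene for 47 libraries, made with HTSeq 1.99.2, STAR 2.7.8 and build ARS-UCD1.2 of the cattle genome, per the submitters' processing notes. The settings for strand and multiply placed reads are not given in the sources used, so overlapping genes and near-identical copies cannot be separated. The 5 summary entries (unassigned reads) stayed out of totals; 21.7% to 46.4% of uniquely placed reads were assigned to genes. A parenchyma control numbered 2 was not analysed here.

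The 5 genes, lists and tests were chosen with earlier results of these data known, and all 5 were to be named in every comparison. Pathway and marker lists could not be run, since a RefSeq table matched 0 of the identifiers. CPM is a count over the sum of gene rows, per M. Tests used edgeR 4.0.16 in R 4.3.3 (TMM, filterByExpr with minimum count 10 and minimum total 15, robust quasi-likelihood F test), first tested on simulated data. Each diet comparison used its 2 groups, and tissue and interaction contrasts used 4 groups. A gene passed when its p, adjusted by Benjamini-Hochberg over the whole comparison, was under 0.05. A prior count of 2 entered log2 values for position, computed over 17897 genes with the library itself left out of the means. Relations used a pseudocount of 1, numpy 2.4.6 and scipy 1.17.1. Alternatives were DESeq2 1.42.0, no scaling, no filter, the assigned share as a covariate, all 3 diets, a replicate block, single libraries left out, TMM-scaled levels and a pseudocount of 0.1; position as a covariate was added after the data were seen. Libraries with the same number were not taken as pairs.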

Additional observations from a re-analysis of the deposited data

Results flagged for a closer look

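Within the groups of 4 to 6 libraries, 32 combinations of gene and group were examined for a library far from the others, and 8 had one. Chance gives about 1 in 20 for independent groups of normally distributed values, and these combinations share libraries. In fat pad of unlimited calves, library 11 stood apart in all 3 enzymes, with FASN at 3488 CPM (the others 372 to 720), ACACA at 823 CPM (121 to 176) and DGAT1 at 32.9 CPM (14.0 to 19.6). In parenchyma of unlimited calves, library 11 was at 14167 CPM of FASN (5425 to 7649 in the others), and library 15 was low in DGAT1, at 63.6 CPM (87.2 to 94.6). In parenchyma of restricted calves, library 10 was at 11400 CPM of FASN (641 to 3869) and at 1924 CPM of ACACA (405 to 968). ENSBTAG00000007823 was at 2.73 CPM in liver of unlimited library 3 (0.381 to 1.07). The effect of unlimited against restricted feeding on FASN differed between parenchyma and liver by 2.79 on the log2 scale (edgeR adjusted p = 0.0232).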

How the results depend on the processing

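Under the other settings, 239 of 267 log2 differences kept their direction and side of the threshold, 14 lost and 5 gained a call, and 9 turned. For unlimited against control parenchyma, the 2 enzymes that passed became 1 with DESeq2 (which gave FASN no adjusted p), 1 with the PAR-titled libraries as parenchyma controls, and 0 without the filter or with position in the fit. For restricted against control fat pad, 2 became 1 without scaling, without the filter or with the assigned share, and 0 without the PAR-titled controls, where FASN turned to 0.65. For unlimited against control fat pad, 1 became 0 without them, with FASN at 1.64 and ACACA at 0.25. The interaction of parenchyma and liver went from 1 to 2 with DESeq2 or a replicate block, to 0 with the assigned share, and DGAT1 turned to -0.15 there without scaling. With the replicate block FASN was at 3.10 and ACACA at 1.51 (edgeR adjusted p = 0.00304 and 0.00858); in the interaction of parenchyma and fat pad the block gave 1.30 for FASN and 0.63 for ACACA (edgeR adjusted p = 0.280 and 0.509). Deviations of libraries with the same number correlated at -0.0485 to 0.158, and across the pairs of tissues 6 or 7 of 12 numbers correlated best with themselves, a hint from the data and not from the labels. DGAT1 also turned in restricted against control liver (0.021, assigned share), restricted against control parenchyma (0.023, assigned share; 0.19, position), unlimited against restricted fat pad (-0.024, position) and the interaction of fat pad and liver (0.19, assigned share). The relation of ACACA and DGAT1 in liver was 0.286 on deviations from diet means. The cause of these changes was not tested.

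With single libraries left out, the enzymes passing ranged from 0 to 3 in unlimited against restricted parenchyma, 0 to 2 in unlimited against control parenchyma, 1 to 3 in restricted against control fat pad, and 0 to 2 in the interaction of parenchyma and liver. Log2 differences that turned ranged, for DGAT1, from -0.18 to 0.14 in restricted against control parenchyma, from -0.12 to 0.19 in unlimited against restricted fat pad, and from -0.25 to 0.078 in the interaction of fat pad and liver. For FASN they ranged from -0.068 to 1.15 in unlimited against restricted fat pad, from -1.72 to 0.66 in unlimited against control fat pad, and from -0.0084 to 1.02 in the interaction of parenchyma and fat pad. ACACA ranged from -0.17 to 0.78 in unlimited against restricted fat pad. With TMM-scaled library sizes, 7 of 36 mean levels moved by more than 1 SD, all in liver or restricted fat pad. Depth limits ENSBTAG00000007823, where counting error is large, and group sizes of 3 to 6 limit the rest.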

Other observations

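Libraries of restricted and unlimited calves carry numbers that recur in each tissue, 12 in all. Across these numbers, and with 9 relations computed after the data were seen, the level of FASN in parenchyma and fat pad gave a Pearson's r of 0.388 (permutation p = 0.193, adjusted 0.522), and a rho of 0.245 (permutation p = 0.441, adjusted 0.796); without the 2 libraries farthest from the median r was 0.758. ACACA in parenchyma and liver gave an r of 0.455 (permutation p = 0.140, adjusted 0.522), and 0.401 without the 2 farthest libraries. DGAT1 in parenchyma and fat pad gave an r of -0.270 (permutation p = 0.398, adjusted 0.522), and -0.662 without the 2 farthest libraries. None of the 9 relations passed. The labels do not say whether equal numbers are the same calf. The number 11 was the highest of its group in FASN in liver (177 CPM), fat pad (3488 CPM) and parenchyma (14167 CPM) of unlimited calves, an observation made after the values were seen.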
